A study of Mus musculus with 11 samples.

Results

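A set of 10 surface molecules of T cell costimulation and cell contact, Cd28, Icos, Cd40lg, Cd226, Cd2, Cd5, Cd6, Slamf1, Cd84 and Cd48, were followed by RNA sequencing in lymph node CD4+ cells. They were taken by name, and each of the 10 symbols matched 1 row of the 55471 Ensembl genes in the count table. C57BL/6 mice were the source, the nodes were the axillary and inguinal ones, and the cells were isolated with an untouched bead kit and were then cultured for 2 h with concanavalin A at 1.25 µg/ml, a lectin that activates T cells. WT mice gave 5 libraries. Pggt1b fl/fl Lys-Cre mice, called GLC, gave 6 libraries. In GLC mice Pggt1b, which encodes a subunit of the type I enzyme that attaches geranylgeranyl lipids to proteins, is deleted in macrophages by Cre under the lysozyme promoter, which is active in macrophages and other myeloid cells. Whether the WT mice carried floxed alleles or Cre, and how old the mice were, is not given in the sources used here. Both groups were stimulated, and no unstimulated sample is analysed here. The comparison asks how CD4+ cells differ when macrophages lack Pggt1b.

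T cells need a signal from a costimulatory receptor beside the one from the antigen receptor. CD28 gives that signal when it binds CD80 or CD86 on antigen-presenting cells, ICOS does so for its own ligand on activated and helper cells, and CD40 ligand passes a signal from the helper T cell to B cells and dendritic cells through CD40. CD226 binds CD155 and nectin-2. CD2 and the SLAM family receptors hold cells together and tune signalling, in mice through CD48 as the ligand of CD2, and through binding of SLAMF1 and CD84 to their own kind. CD5 and CD6 are related scavenger receptor cysteine-rich proteins that modulate antigen receptor signalling.

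Libraries held between 11308285 and 14620148 counts, with WT libraries at 12775695 or more and GLC libraries at 12820895 or fewer. GLC replicate 78 was pooled from 2 mice. GLC replicate 9 had 633 counts in 4 Y-linked genes, where the other libraries had at most 1. It had 11 counts of Xist, where the others had 2992 to 5943. These are the counts of a male library among female ones, although the labels give no sex. In WT replicate 1 the transcript Gm42418 took 10.0% of counts, against 5.99% to 7.82% elsewhere. Pggt1b itself was detected in every library, which does not check a deletion made in macrophages. The labelled cell type was present: Cd4, in CPM (reads of a gene per scaled library of fixed size), averaged 372 ± 22.5 (SD, n = 5) in WT libraries and 341 ± 26.2 CPM (SD, n = 6) in GLC libraries, while Cd8a had at most 7 counts, the B cell marker Ms4a1 at most 10, the natural killer marker Ncr1 at most 5 and the macrophage marker Csf1r at most 11 in any library. Other genes of the same marker lists were present, with 104 to 189 counts of Cd8b1, 36 to 162 of Blk, 85 to 296 of Eomes and 33 to 69 of Cd68, and Igkc reached 8212 counts.

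All 10 members were detected in every library and passed the filter on low counts, and none was called higher or lower in GLC. In edgeR's quasi-likelihood test over 12404 genes, 0 of 10 members had an adjusted p under 0.05, each being at 0.9997. The background is the same, since 0 of all genes tested were called (0%). At an unadjusted p under 0.05, 1 of 10 members (Cd6) stood against 4.54% of all genes tested. DESeq2 and limma-voom called 0 of 10 members (background 0.00763% and 0%), each with Cd6 alone at an unadjusted p under 0.05. Over all genes, that unadjusted p was met by 770 of 26226 in DESeq2 and by 538 of 12404 in limma-voom. For 0 of 10 members did the WT and GLC libraries separate without overlap, against 0.331% of all genes. The median log2 fold change (GLC against WT) of the members was 0.038, with 7 above 0 and 3 below, beside a median of -0.00016 over all genes tested. In simulated data of this size the same test found 54% of genes changed 1.5-fold and 10% of those changed 1.25-fold. Each simulation changed 200 genes, by up to 4-fold, which eases the adjustment, and the rates cover genes of every spread. They are not rates for single members, some of which spread more widely and others less widely than the median gene tested. The labels number the libraries but, apart from the pool, do not say which animals they came from, so the p-values measure only the spread between these libraries. In bulk RNA, fewer cells of a type and less RNA per cell cannot be told apart.

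**Figure D1:**
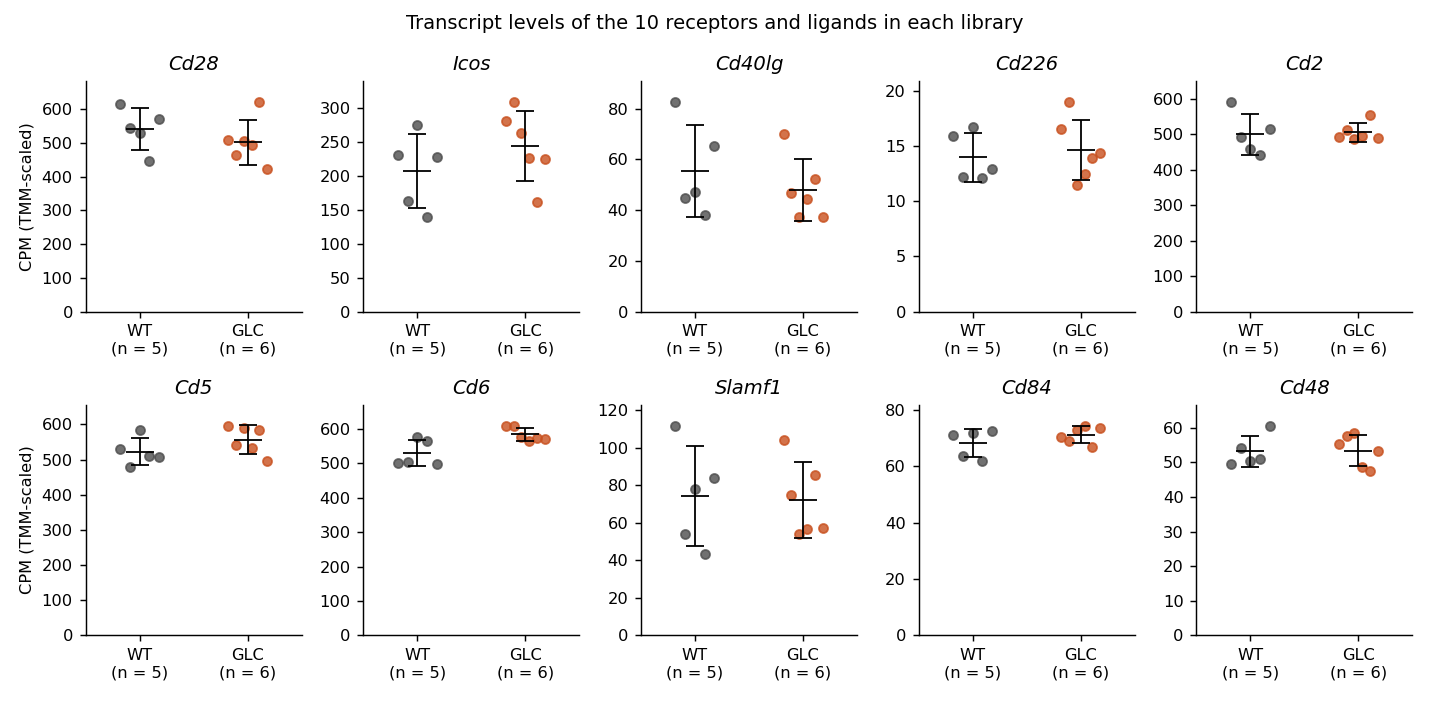
Transcript level of each of the 10 genes in CPM (counts scaled to library size, vertical axes from 0) in 5 WT and 6 GLC libraries; points are libraries, and the bar with caps is the mean ± SD. The groups overlap for every gene, and Slamf1, Cd40lg and Icos spread widest, from 43.4 to 112, 37.2 to 82.6 and 140.3 to 309 CPM.

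Because genes differ in length, levels between members were compared per kilobase of annotated exon. Cd2 was highest at 289 ± 23.7 CPM per kilobase (SD over 11 libraries), and its lowest library lay above the highest library of any other member. Cd5 followed at 109.8 ± 8.45, Cd28 at 84.99 ± 10.53, Cd6 at 70.2 ± 4.995 and Icos at 66.4 ± 15.7 CPM per kilobase. Cd48 was at 44.9 ± 3.59 and Cd40lg at 41.2 ± 11.9 CPM per kilobase. From Cd5 down to Cd40lg the range of each gene over libraries overlapped that of the next. Within libraries Cd5 was above Cd28 in 11 of 11, Cd28 above Cd6 in 9, Icos above Cd48 in 10 and Cd48 above Cd40lg in 7, while Cd6 was above Icos in 5 of 11. Ranges also overlapped for Slamf1 at 11.9 ± 3.59 and Cd84 at 11.1 ± 0.648, with Slamf1 above in 6 of 11 libraries. Cd226 was the lowest at 2.93 ± 0.491 CPM per kilobase, below every library of Slamf1 and Cd84, and rested on 134 to 247 counts per library. Exon lengths are the union over all annotated transcripts, which understates genes with long unused exons.

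CD28 and ICOS are neighbouring members of 1 receptor family, with Cd28 (ENSMUSG00000026012) at positions 60716800 to 60773359 and Icos (ENSMUSG00000026009) at positions 60977927 to 61000320 of chromosome 1 (GRCm38). Cd28 was at 615, 545, 529, 448 and 571 CPM in WT replicates 1 to 5 and at 509, 465, 505, 494, 621 and 422 CPM in GLC replicates 6, 78, 9, 10, 11 and 12. GLC replicate 11 was the highest of all libraries and GLC replicate 12 the lowest, and 1 of 6 GLC libraries exceeded the WT average. The log2 fold change of Cd28 was -0.11 (SE 0.10, 95% interval -0.32 to 0.10; edgeR adjusted p = 0.9997).

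Icos took the opposite direction with a wider spread. It was at 232, 164, 275, 140.3 and 228 CPM in WT replicates 1 to 5 and at 281, 309, 264, 226, 162 and 225.5 CPM in GLC replicates 6, 78, 9, 10, 11 and 12. WT replicate 4, GLC replicate 11 and WT replicate 2 were the 3 lowest libraries, and GLC replicates 78 and 6 lay above every WT library. Icos averaged 208 ± 54.7 CPM (SD, n = 5) in WT libraries and 245 ± 51.9 CPM (SD, n = 6) in GLC libraries, which gave a log2 fold change of 0.24 (SE 0.18, 95% interval -0.14 to 0.61; edgeR adjusted p = 0.9997). With 1 library left out the log2 fold change of Icos was between 0.12 and 0.36. A same-strand annotated transcript, Gm37039, overlaps the span of Icos and held 762 counts over all libraries. Whether it shares exon bases with Icos, where reads may have been lost, was not checked.

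Markers of regulatory and follicular helper T cells, 2 subsets known for high ICOS, ran in the same direction as Icos. All 8 of 8 regulatory markers had a log2 fold change above 0, none was called in edgeR, and 3 had an unadjusted p under 0.05, where 49.9% of all genes tested were above 0 and 4.54% under that p. Their summed level was 415 to 667 CPM in WT and 463 to 950 CPM in GLC. This sum was highest in GLC replicate 78, and WT replicate 2, WT replicate 4 and GLC replicate 11 had the 3 lowest sums. Il2ra, Tnfrsf18 and Tnfrsf4 weighed most in it, at 119.6, 112.9 and 112.8 CPM on average in WT, beside 57.3 CPM for Foxp3. Foxp3 alone was also highest in GLC replicate 78 (129.6 CPM). Its lowest libraries were WT replicates 2, 1 and 4, at 37.8, 48.0 and 53.5 CPM, with GLC replicate 11 next at 54.9 CPM. Of the 6 follicular helper markers, 5 were tested, 5 were above 0 and 2 had an unadjusted p under 0.05, with summed levels of 94.9 to 152 CPM in WT and 106 to 178 CPM in GLC. Bcl6 weighed most in this sum, at 81.6 CPM on average in WT and 82.1 CPM in GLC. Its log2 fold change was only 0.0098. Naive markers, 0 of 6 above 0 and 2 under that p, summed to 5602 to 6629 CPM in WT and 4909 to 6183 CPM in GLC, with the lowest sum in GLC replicate 78. The part of these markers in the level of Icos was not tested.

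CTLA-4, whose gene lies between Cd28 and Icos, binds the same ligands as CD28 with an inhibitory outcome. The log2 CPM of Cd28 exceeded that of Ctla4 by 1.96, 2.70, 1.65, 2.38 and 2.12 in WT replicates 1 to 5 and by 1.39, 1.15, 1.94, 1.78, 2.42 and 1.85 in GLC replicates 6, 78, 9, 10, 11 and 12. These values are not scaled to exon length, which is 6122 bases for Cd28 and 2330 for Ctla4. The same holds for Icos against Cd28 and Cd226 against Tigit, so these differences compare groups and do not rank genes by level. The groups overlapped, with 5 of 6 GLC libraries under the WT average. The mean difference came to 2.16 ± 0.402 (SD, n = 5) for WT and 1.75 ± 0.443 (SD, n = 6) for GLC, a change of -0.41 (exact permutation test, two-sided, p = 0.152; adjusted over 3 such differences, p = 0.169). Within libraries, the log2 CPM of Icos lay below that of Cd28 by a mean of -1.42 ± 0.315 in WT and -1.06 ± 0.465 in GLC, and 5 of 6 GLC libraries exceeded the WT average. GLC replicate 11 stood lowest of all libraries at -1.94, beside -1.13 to -0.59 in the other GLC libraries. The two-sided exact permutation p for Icos against Cd28 was 0.169 (adjusted p = 0.169), and without GLC replicate 11 the group difference went from 0.36 to 0.54 (adjusted p = 0.0357). With 1 library left out the group difference ranged from 0.27 to 0.54 (same test, adjusted p of 0.0357 to 0.324). It passed only without GLC replicate 11.

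CD226 shares the ligand CD155 with the inhibitory receptor TIGIT. Cd226 (ENSMUSG00000034028, chromosome 18, positions 89176967 to 89272229) was at 15.9, 12.2, 16.7, 12.1 and 12.9 CPM in WT replicates 1 to 5, and between 11.5 and 19.0 CPM in GLC with a median of 14.1. GLC replicate 78 had the highest level and GLC replicate 9 the lowest, so that the GLC range enclosed the WT range. Its log2 fold change was 0.069 (SE 0.14, 95% interval -0.23 to 0.37; edgeR adjusted p = 0.9997), and -0.016 without GLC replicate 78. Tigit, which is no member, averaged 28.9 ± 8.11 CPM (SD, n = 5) over WT and 43.4 ± 15.6 CPM (SD, n = 6) over GLC libraries (log2 fold change 0.59, SE 0.23; edgeR adjusted p = 0.9997).

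The log2 CPM of Cd226 lay below that of Tigit in every library, by -1.06, -0.79, -1.05, -0.65 and -1.48 in WT replicates 1 to 5. In GLC replicates 6, 78, 9, 10, 11 and 12 the difference was -1.32, -1.94, -1.78, -1.69, -0.95 and -1.40. GLC replicates 78, 9 and 10 were below every WT library, and GLC replicate 11 exceeded the WT average. Means of -1.01 ± 0.315 (SD, n = 5) for WT and -1.51 ± 0.363 (SD, n = 6) for GLC were found, and GLC minus WT was -0.51 (exact permutation test, two-sided, p = 0.0455; adjusted over 3 differences, p = 0.136). This difference did not pass the correction. With 1 library left out it ranged from -0.62 to -0.42 (exact permutation test, adjusted p of 0.0357 to 0.3). It passed only without GLC replicate 11, where it was -0.62 (adjusted p = 0.0357). The part of the regulatory marker sums given above in this measure was not tested.

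**Figure D2:**
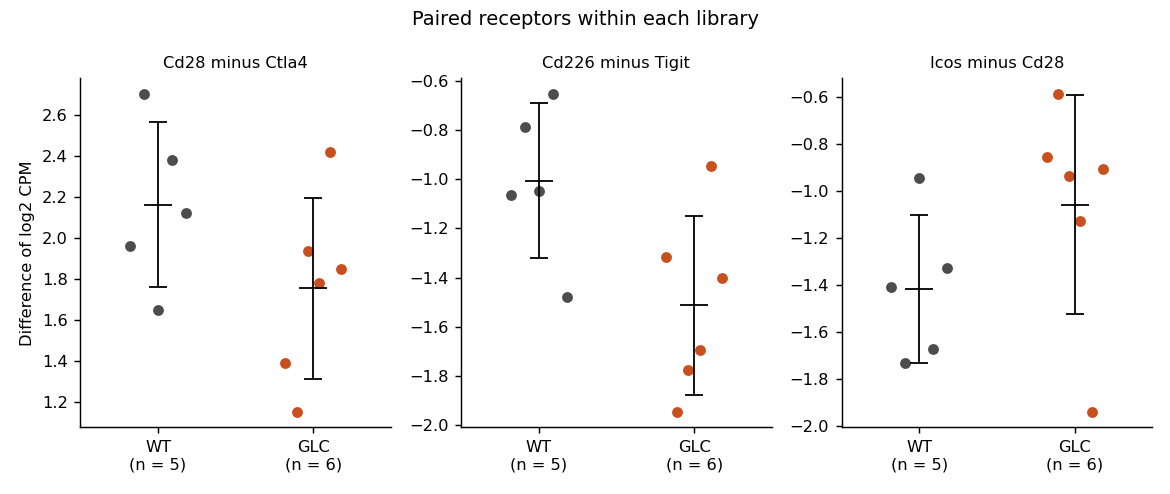
Difference of log2 CPM between paired receptors within each library (vertical axes) for 5 WT and 6 GLC libraries; points are libraries, and the bar with caps is the mean ± SD. For Cd226 minus Tigit the mean is -1.01 in WT and -1.51 in GLC, and in all 3 panels GLC replicate 11 lies on the other side of the WT mean from the other GLC libraries.

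CD40 ligand and SLAMF1 had large differences between libraries of both groups. Cd40lg (ENSMUSG00000031132, X chromosome, positions 57212143 to 57224042) was at 82.6, 44.6, 47.1, 38.2 and 65.3 CPM in WT replicates 1 to 5. In GLC replicates 6, 78, 9, 10, 11 and 12 it was at 70.0, 46.8, 37.2, 44.6, 52.2 and 37.3 CPM. WT replicate 1, GLC replicate 6 and WT replicate 5 were the 3 highest libraries, and GLC replicates 9 and 12 were the lowest. GLC replicate 9 is the library with Y-linked counts, and the part of sex in this X-linked gene was not tested. The log2 fold change of Cd40lg was -0.21 (SE 0.20, 95% interval -0.63 to 0.21; edgeR adjusted p = 0.9997). It was -0.026 without WT replicate 1, and 0.068 when GLC replicates 9 and 78 were left out as well.

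Slamf1 (ENSMUSG00000015316) encodes SLAM, the founding receptor of the family, and lies on chromosome 1 at positions 171767127 to 171801184, beside Cd48 (ENSMUSG00000015355, 171682009 to 171705258) and Cd84 (ENSMUSG00000038147, 171839697 to 171890718), all on the plus strand. It was at 112, 54.0, 78.05, 43.4 and 83.7 CPM in WT replicates 1 to 5. In GLC replicates 6, 78, 9, 10, 11 and 12 it was at 104, 74.9, 53.9, 56.7, 85.4 and 57.0 CPM. Both groups held libraries near the top and near the bottom of this range. Its log2 fold change came to -0.042 (SE 0.22, 95% interval -0.52 to 0.44; edgeR adjusted p = 0.9997), and leaving out 1 library moved it to between -0.18 and 0.15, the latter without WT replicate 1.

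Cd84, a self-binding receptor, and Cd48, the membrane-anchored ligand of CD2 and of the receptor 2B4, were steady beside Slamf1. Cd84 was at 71.1, 63.8, 71.8, 62.0 and 72.5 CPM in WT replicates 1 to 5 and between 66.8 and 74.4 CPM in GLC with a median of 71.7. 3 GLC libraries exceeded every WT library, and 5 of 6 the WT average, with a log2 fold change of 0.061 (SE 0.061, 95% interval -0.069 to 0.19). Cd48 was at 49.7, 54.3, 50.5, 50.9 and 60.6 CPM in WT and between 47.5 and 58.4 CPM in GLC with a median of 54.3. For Cd48 the log2 fold change came to 0.0069 (SE 0.075, 95% interval -0.15 to 0.17). Both genes had an adjusted p of 0.9997 in edgeR. The span of Cd48 too is overlapped on its strand by an annotated transcript, Gm37010, with 143 counts over all libraries. The highest library exceeded the lowest 2.57-fold for Slamf1, 1.2007-fold for Cd84 and 1.28-fold for Cd48.

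The 250 bases before the start of these 3 neighbouring SLAM family genes are shown because the genes share a locus and a family but not their spread between libraries. The start is that of RefSeq, which for Slamf1 and Cd48 is not the same position as the GENCODE start given above. The sequences are from RefSeq, on the plus strand (GRCm38.p6), and 4 of the 10 members had an entry. Capitals mark matches, on either strand, to GGAAA (the core of NFAT sites), TGANTCA (the AP-1 motif) and GGAAG (a core of Ets sites); the letters GGAA are common to the NFAT and Ets cores, but no match to one is a match to the other in the same register.
Slamf1, chr1:171766882-171767131: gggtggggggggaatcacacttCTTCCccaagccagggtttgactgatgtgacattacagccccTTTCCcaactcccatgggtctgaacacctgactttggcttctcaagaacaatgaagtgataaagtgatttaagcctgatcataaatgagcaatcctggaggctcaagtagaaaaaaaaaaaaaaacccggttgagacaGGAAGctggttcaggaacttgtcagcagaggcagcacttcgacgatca
Cd84, chr1:171839447-171839696: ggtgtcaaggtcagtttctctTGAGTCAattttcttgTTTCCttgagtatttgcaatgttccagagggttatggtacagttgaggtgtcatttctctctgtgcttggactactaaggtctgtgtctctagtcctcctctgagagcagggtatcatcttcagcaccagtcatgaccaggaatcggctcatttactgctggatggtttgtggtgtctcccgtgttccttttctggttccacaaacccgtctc
Cd48, chr1:171681742-171681991: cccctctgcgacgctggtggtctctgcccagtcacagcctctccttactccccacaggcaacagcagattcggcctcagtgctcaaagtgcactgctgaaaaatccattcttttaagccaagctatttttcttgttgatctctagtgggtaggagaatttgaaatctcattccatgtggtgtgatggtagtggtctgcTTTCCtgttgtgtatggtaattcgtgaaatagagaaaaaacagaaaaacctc
Each window held 1 match to GGAAA, which 55.6% of 32851 RefSeq promoter windows of the same length hold at least once. Cd84 alone of the 3 held a match to TGANTCA (6.75% of windows), and Slamf1 held 2 matches to GGAAG (64.1% of windows) where Cd84 and Cd48 held 0. Letters in a window describe sequence and say nothing of binding in these cells.

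Slamf1, Cd40lg and Icos lay above the trend of variation for genes of like abundance. The biological coefficient of variation, the spread between libraries of 1 group beyond counting noise as edgeR estimates it, was 0.260 for Slamf1, 0.230 for Cd40lg and 0.207 for Icos, where the trend at their abundance was 0.119, 0.121 and 0.122. For Cd226 it was 0.160 beside a trend of 0.168, and for Cd28 0.123 beside 0.124. Below the trend lay Cd2 at 0.0999, Cd5 at 0.0938, Cd48 at 0.0937, Cd6 at 0.0849 and Cd84 at 0.0809, with trends between 0.119 and 0.124. These are descriptions with no test, and they bound what the comparison of groups could resolve, since the 95% interval of Slamf1 spans -0.52 to 0.44 and that of Cd84 -0.069 to 0.19.

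**Figure D3:**
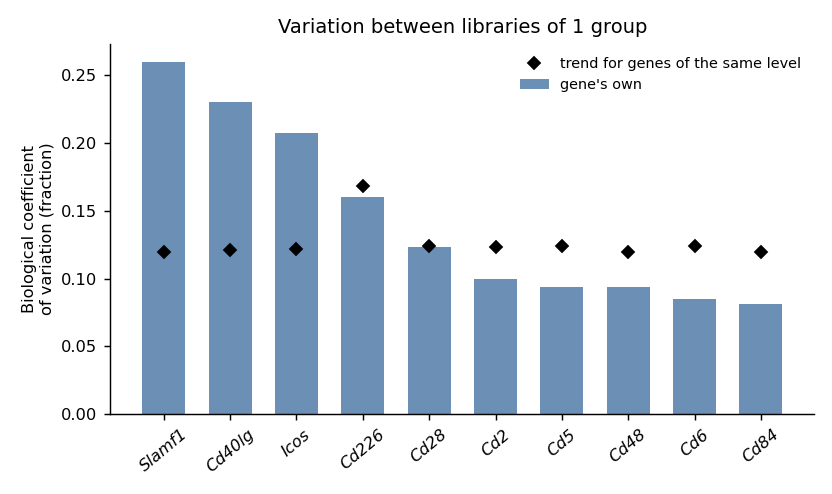
Biological coefficient of variation (fraction, vertical axis from 0) of each of the 10 genes as bars, with diamonds for the trend over genes of the same abundance. Slamf1, Cd40lg and Icos stand above the trend and Cd2, Cd5, Cd48, Cd6 and Cd84 below it.

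Slamf1 and Cd40lg varied together. Over the 11 libraries Pearson's r of their log2 CPM was 0.905 (permutation p = 5e-05, adjusted p = 0.00225 over 45 pairs of members) and Spearman's rho was 0.909 (permutation p = 0.00038, adjusted p = 0.0171). Without WT replicate 1 and GLC replicate 6, the libraries farthest from the median of Cd40lg, r was 0.806. With any 1 library left out r was between 0.874 and 0.922 and passed each time, while rho no longer passed the adjustment without WT replicate 1, WT replicate 3, GLC replicate 6, GLC replicate 78 or GLC replicate 11. Among the 6 GLC libraries alone r was 0.944 (exact permutation p = 0.00417), where an adjusted p over 45 pairs cannot go below 0.0625. The deviations of both genes from their group means correlated at r = 0.933 over the 11 libraries. WT replicate 1, with the largest share of Gm42418 counts, was the highest library for both genes; without it r was 0.874.

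**Figure D4:**
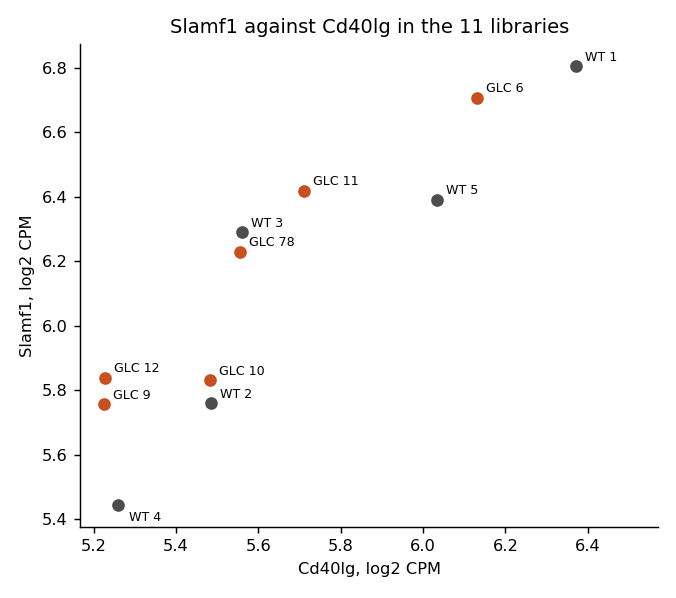
Level of Slamf1 (vertical axis) against Cd40lg (horizontal axis), both in log2 CPM, with 1 point per library labelled by group and replicate. The points run from low to high in both genes with r = 0.905, and WT and GLC libraries are mixed along the line.

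Of the other 44 pairs none passed after adjustment, and 9 of them had an unadjusted permutation p under 0.05. The share of pairs of all genes under that p was not measured, so the count is no trait of this set. Among 10565 genes searched, Slamf1 ran closer to Orai1 (r = 0.959) and Cd40lg to Ncl (r = 0.936) than to each other (r = 0.905). Icos and Cd84 had r = 0.733 (permutation p = 0.0115, adjusted p = 0.165) but a rho of 0.282 (permutation p = 0.401, adjusted p = 0.903), and r was 0.444 without WT replicate 4 and GLC replicate 11. Cd28 and Cd2 had r = 0.696 (permutation p = 0.0159, adjusted p = 0.165) and rho = 0.636 (permutation p = 0.0401, adjusted p = 0.219), and r was 0.290 without WT replicate 1 and GLC replicate 11. For Cd28 and Cd2, r was at least 0.583 with 1 library left out and 0.767 within the 6 GLC libraries (exact permutation p = 0.126).

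CD2, CD5 and CD6, the abundant adhesion and modulating receptors of T cells, kept narrow ranges. Cd2 (ENSMUSG00000027863, chromosome 3, positions 101275899 to 101287939) was at 592, 494, 458, 444 and 515 CPM in WT replicates 1 to 5 and between 487.5 and 556 CPM in GLC with a median of 494. All GLC libraries fell within the WT range. Its log2 fold change was 0.015 (SE 0.077, 95% interval -0.15 to 0.18; edgeR adjusted p = 0.9997), and its sign changed with single libraries left out.

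Cd5 (ENSMUSG00000024669) and Cd6 (ENSMUSG00000024670) are neighbours on the minus strand of chromosome 19, at positions 10717116 to 10739002 and 10789341 to 10830058. Cd5 was at 531, 479.9, 583, 511 and 506 CPM in WT replicates 1 to 5 and between 496 and 597 CPM in GLC with a median of 563. 3 GLC libraries exceeded every WT library, with a log2 fold change of 0.092 (SE 0.071, 95% interval -0.059 to 0.24; edgeR adjusted p = 0.9997).

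Cd6 had the smallest p of the members. It was at 500.2, 505, 575, 566 and 499 CPM in WT replicates 1 to 5 and at 609, 607, 578, 565, 573 and 571 CPM in GLC replicates 6, 78, 9, 10, 11 and 12. All 6 GLC libraries exceeded the WT average and 3 exceeded every WT library, while WT replicates 3 and 4 lay within the GLC range. Cd6 averaged 529 ± 38.1 CPM (SD, n = 5) and 584 ± 19.3 CPM (SD, n = 6), with a log2 fold change of 0.14 (SE 0.06, 95% interval 0.01 to 0.28). The unadjusted p was 0.0383 and the adjusted p 0.9997 in edgeR's quasi-likelihood test, where Cd6 ranked 419 among all genes by p. Without WT replicate 1, 2 or 5 or GLC replicate 6 or 78 the unadjusted p of Cd6 in edgeR was between 0.0710 and 0.0927, and with no filter on low counts it was 0.0569. The log2 fold change stayed between 0.12 and 0.18 with any 1 library left out. Cd5 and Cd6 had r = 0.613 (permutation p = 0.0476, adjusted p = 0.214) and rho = 0.764 (permutation p = 0.00855, adjusted p = 0.192) over the 11 libraries, with r = 0.497 without GLC replicates 6 and 9.

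**Figure D5:**
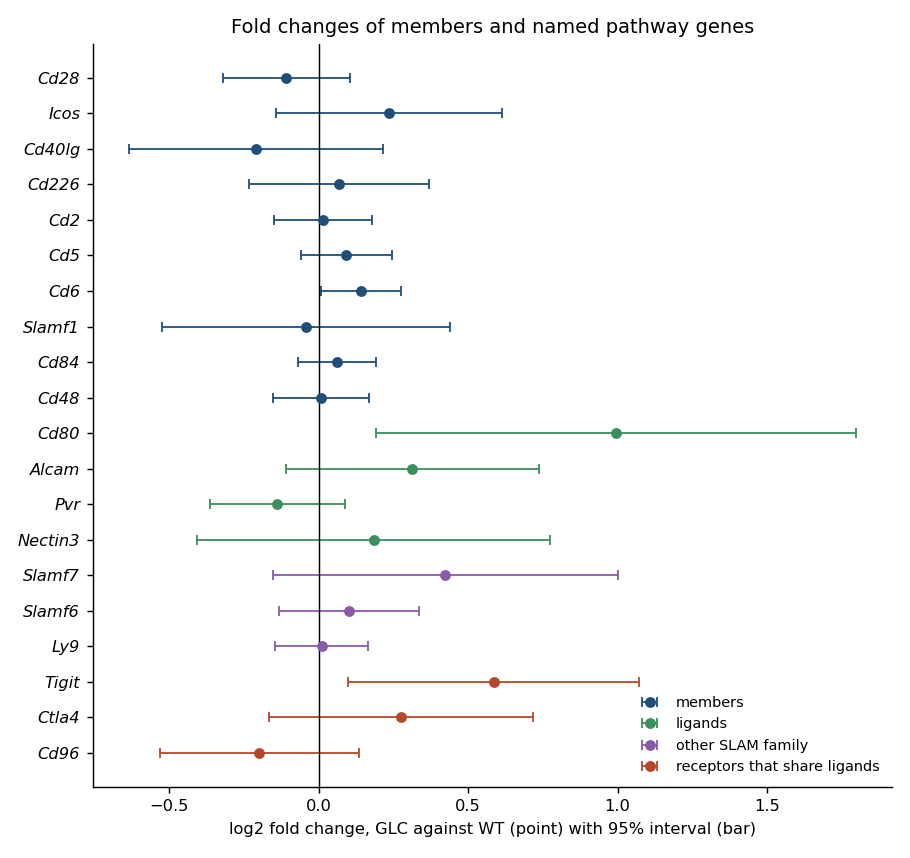
Log2 fold change of GLC against WT (horizontal axis, points) with its 95% interval (bars) for the 10 members and the named genes of 3 pathway lists (ligands, other SLAM family, receptors that share ligands), coloured by list. The members lie between -0.21 and 0.24, and the ligand Cd80 lies farthest from 0 at 0.99 with a wide interval.

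Ligands of these receptors, listed together with Nectin3, which is not one of them, were measured in the same CD4+ cells. Of 9 listed, 8 were tested, 5 above and 3 below 0, with a median log2 fold change of 0.044, and 0 were called in either direction by edgeR, with Cd80 alone at an unadjusted p under 0.05. Cd80, a ligand of CD28 and CTLA-4, averaged 2.53 ± 1.32 CPM (SD, n = 5) over WT and 5.06 ± 2.28 CPM (SD, n = 6) over GLC libraries, with a log2 fold change of 0.99 (SE 0.38; edgeR unadjusted p = 0.0187, adjusted p = 0.9997). All 6 GLC libraries exceeded the WT average of Cd80, on 12 to 124 counts per library. Alcam, a ligand of CD6, was at 0.31 (SE 0.20), Pvr, which encodes CD155, at -0.14 (SE 0.10) and Nectin3 at 0.18 (SE 0.28). Antigen-presenting cells also express Cd80. The B cell markers, 1 of 4 tested of 10 listed above 0, summed to 7.18 to 16.3 CPM in WT and 6.57 to 18.7 CPM in GLC, and the macrophage and dendritic markers, 1 of 2 tested of 10 listed above 0, to 5.74 to 8.53 and 4.13 to 8.22 CPM. Plasma cell markers, 4 of 6 tested above 0, summed to 89.3 to 880.2 CPM in WT and 250.4 to 1381 CPM in GLC. With the mean of the 4 tested B cell markers as a covariate the log2 fold change of Cd80 was 1.03 (edgeR adjusted p = 0.857). Of these markers Cd79a, Cd79b and Cd22 had at most 28, 20 and 18 counts in any library, so this covariate measures B cells poorly. The part of B, plasma, macrophage and dendritic cells in the Cd80 values cannot be told from these values.

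The other SLAM family genes were unevenly detected. Of 6 listed, 3 were tested and 0 called by edgeR, with 0 at an unadjusted p under 0.05: Slamf6, which encodes Ly108, at a log2 fold change of 0.10 (SE 0.11), Ly9 at 0.010 (SE 0.073) and Slamf7 at 0.42 (SE 0.27). Slamf8, Slamf9 and Cd244a had at most 2, 4 and 10 counts in any library. Among receptors that share ligands with members, 3 of 4 were tested and 0 called by edgeR, with Tigit alone at an unadjusted p under 0.05, Ctla4 at 0.28 (SE 0.21), Cd96, another CD155 receptor, at -0.20 (SE 0.16) and Tigit at the level given above. The median was 0.10 for the SLAM list and 0.28 for the receptors, beside -0.00016 over all genes tested.

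Adaptors and kinases downstream of the receptors were evenly split. Of 19 listed, 18 were tested, 9 above and 9 below 0, with a median log2 fold change of -0.00088 and 0 called by edgeR, with 2 at an unadjusted p under 0.05. Grap2, the GADS adaptor, was at -0.12 (SE 0.07) and Pstpip1, which binds the tail of CD2, at 0.10 (SE 0.08). Sh2d1a, the SAP adaptor of SLAM receptors, was at -0.081 (SE 0.11), with a median of 41.5 CPM in WT and 41.9 CPM in GLC.

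The genes whose log2 CPM over the 11 libraries was most like each member were looked up among 10565 genes, as the highest 2 Pearson's r of that search and without a test. The r that unrelated genes would reach in such a search was not measured, so a high r here is no sign of a shared role. For Icos they were Cd200, a surface glycoprotein of activated lymphocytes (r = 0.969), and Dscam (r = 0.964). Slamf1 was most like Orai1, the pore of the store-operated calcium channel (r = 0.959), and Spry1, a feedback inhibitor of receptor signalling (r = 0.942). Cd40lg was most like Ncl, which encodes nucleolin (r = 0.936), and the non-coding RNA Snhg5 (r = 0.918). Cd226 was most like the transporter Slc15a3 (r = 0.952) and the transcription factor Nfil3 (r = 0.948).

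Among the abundant members, Cd28 was most like Ist1 (r = 0.949) and Ncoa4 (r = 0.940), and Cd2 was most like Tmsb4x, an actin-binding thymosin (r = 0.951), and Snrpb2 (r = 0.926). Cd6 was most like P2rx7, an ATP-gated channel (r = 0.880), and Slc43a3 (r = 0.875), and Cd5 most like Vwa7 (r = 0.878) and the transcription factor Myb (r = 0.870). For Cd84 they were Ms4a6b (r = 0.892) and Car5b (r = 0.883), and for Cd48 Nsdhl, an enzyme of cholesterol synthesis (r = 0.899), and Zfp422 (r = 0.888). None of these genes was called between the groups in edgeR (adjusted p = 0.9997 for each).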

How the data were processed

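RNA was sequenced from CD4+ cells of 5 WT and 6 GLC samples. The authors deposited raw read counts per Ensembl gene; STAR, featureCounts and mm10 are named per the submitters' processing notes, while versions, annotation and strand setting were not given in the sources used here. Samples were grouped by title; 0 columns were left without a sample. Symbols and positions come from GENCODE M21 (GRCm38), which matched 55230 of 55471 identifiers. Chi-square per degree of freedom between libraries was 9.48 to 62.8 over 55 pairs, so none was treated as a copy.

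edgeR 4.0.16 in R 4.3.3 was run on the counts (filterByExpr, TMM, glmQLFit, glmQLFTest, no covariates, Benjamini-Hochberg adjustment over 12404 genes, threshold 0.05). CPM uses scaled library sizes; log2 CPM adds a prior count of 2. Fold changes are GLC against WT. Exact permutation tests used all 462 splits; correlations used 100000 resamples. The test was checked on simulated counts, with 200 genes changed in each of 3 simulations. Alternatives were RLE and upper quartile scaling, no filter, 1 CPM in 5 libraries, DESeq2 1.42.0, limma-voom 3.58.1, the B cell marker mean as a covariate, a prior count of 0.5 and each library left out; leaving out WT replicate 1 and GLC replicates 9 and 78 together was added after seeing the data. Named genes were the members, up to 4 pathway genes of smallest p per list, and the 2 genes most like each member, leaving out predicted genes, clones, pseudogenes and receptor segments. Sh2d1a and genes at few counts were named after their values were seen. The values of some listed genes are not reported here. The members and lists were chosen with earlier results of these data known.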

Additional observations from a re-analysis of the deposited data

Results flagged for a closer look

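Cd2 in GLC replicate 11 stood apart from the other GLC libraries at 556 CPM, where the next highest was 513 CPM and the lowest 487.5 CPM. The gap was 0.630 of the group's range, against a critical value of 0.625 for 6 samples. This was 1 of 26 groups of values examined, and chance flags about 1 in 20. GLC replicate 11 also had the highest Cd28 of all libraries, at 621 CPM.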

How the results depend on the processing

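No member was called under any of the 19 alternatives. The count of all genes called was 0 with each of 17 alternatives, 1 with no filter on low counts and 2 with DESeq2. Of 456 fold changes of members and named pathway genes under alternatives, 435 kept their direction and stayed uncalled, and 21 changed sign. With 1 library left out, log2 fold changes ranged from -0.016 to 0.15 for Cd226, from -0.026 to 0.079 for Cd2, from -0.18 to 0.15 for Slamf1, from -0.020 to 0.063 for Cd48 and from -0.044 to 0.042 for Ly9. Without WT replicate 1 and GLC replicates 9 and 78 together they were 0.068 for Cd40lg, 0.23 for Slamf1, -0.073 for Cd48 and -0.0070 for Slamf6. With 1 library left out, Cd226 minus Tigit ranged from -0.62 to -0.42 (adjusted p of 0.0357 to 0.3), Icos minus Cd28 from 0.27 to 0.54 (0.0357 to 0.324) and Cd28 minus Ctla4 from -0.54 to -0.27 (0.0635 to 0.324) in exact permutation tests; Cd226 minus Tigit and Icos minus Cd28 passed only without GLC replicate 11, and the cause was not tested. The count of pairs correlated by Pearson's r was 1 in 12 alternatives (by Spearman's rho 0 in 5 of them, each without 1 library), 0 within the 6 GLC libraries, where fewer samples limit the p, and 0 without those 3 libraries, where r of Slamf1 and Cd40lg was 0.880 (exact permutation test, adjusted p = 0.0904). No paired analysis was possible because the groups share no replicate numbers. Among members and named pathway genes depth is low for Nectin3 (13 to 32 counts per library), Cd80 (12 to 124), Slamf7 (43 to 143), Alcam (94 to 246) and Cd226 (134 to 247). Among the genes most like a member it is low for Vwa7, Car5b, Dscam and Slc43a3, at means of 1.03, 1.73, 2.11 and 3.54 CPM.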
